A study of Homo sapiens with 8 samples.

Results

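The 10 genes described here, of 54261 in the deposited count table, were taken by symbol: FOS, FOSB, FOSL1, FOSL2, JUN, JUNB and JUND, which encode the subunits of the transcription factor AP-1, and EGR1, ATF3 and IER3, which are immediate early genes outside the FOS and JUN families. Total RNA depleted of ribosomal RNA was sequenced from 8 libraries of cultured human cell lines, 1 library per line and condition, all at passage 5 in DMEM with 10% fetal bovine serum. Untreated cells of 2 lines labelled as normal intestinal epithelium, HIEC6 and NCM460, made up the normal group, and untreated cells of 3 colorectal cancer (CRC) lines, HCT116, DLD1 and HCT8, made up the CRC group. The same 3 CRC lines were also sequenced after hypoxia (n = 3 lines), for which the oxygen level and duration are not given in the sources used here. No line had a second library of the same condition, so the replicates were lines. The study's methods describe DLD1 as mutant for p53 and APC, and HCT8 as wild type for p53 and mutant for APC.

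AP-1 is a dimer. A FOS protein (FOS, FOSB, FOSL1 or FOSL2) must pair with a JUN protein, whereas JUN proteins can also pair with each other, and the dimer binds short DNA sites such as TGACTCA. Serum, growth factors and stress bring many of these genes up within minutes, without new protein synthesis, through ERK, JNK and p38 kinases acting on factors already present. At EGR1 and FOS the serum response factor SRF and its ternary complex partners (TCF, the ELK proteins) do this at CArG boxes, whereas JUN and ATF3 hold ATF/CRE-type sites bound by JUN, ATF2 and ATF3 dimers. FOSL1 (Fra-1) depends strongly on ERK activity and is known in invasive carcinoma cells, EGR1 is a zinc finger factor and a common readout of ERK signalling, ATF3 is a stress-induced bZIP factor that ATF4 can switch on, and IER3 is a stress-induced survival factor.

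The promoters below are those of the members that held at least 1 of the motifs searched. RefSeq entries matched 8 of the 10 members, all but FOSL1 and IER3, with 9 promoters in all since ATF3 had 2. Each line gives the 250 bases before the annotated start, 5′ to 3′ on the strand of the gene, with position -1 next to the start. Capitals mark the motifs searched on both strands: the CArG box, the ATF/CRE-type site TGACNTCA, the AP-1 site TGACTCA, and ACGTG, 1 form of the core to which hypoxia-inducible factors bind. The other form, GCGTG, was not searched.
EGR1, GRCh38.p14 chr5:138465229-138465478, plus strand: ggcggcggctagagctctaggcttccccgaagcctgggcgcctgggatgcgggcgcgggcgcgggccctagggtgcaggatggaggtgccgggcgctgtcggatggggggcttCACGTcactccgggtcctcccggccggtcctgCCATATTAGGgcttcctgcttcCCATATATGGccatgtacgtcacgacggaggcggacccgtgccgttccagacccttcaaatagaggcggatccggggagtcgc
JUN, GRCh38.p14 chr1:58784048-58784297, minus strand: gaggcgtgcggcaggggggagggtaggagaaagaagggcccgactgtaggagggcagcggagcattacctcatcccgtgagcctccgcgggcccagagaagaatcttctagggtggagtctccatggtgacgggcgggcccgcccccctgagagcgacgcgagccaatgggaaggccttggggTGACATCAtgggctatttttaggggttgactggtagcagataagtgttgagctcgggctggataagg
JUND, GRCh38.p14 chr19:18281623-18281872, minus strand: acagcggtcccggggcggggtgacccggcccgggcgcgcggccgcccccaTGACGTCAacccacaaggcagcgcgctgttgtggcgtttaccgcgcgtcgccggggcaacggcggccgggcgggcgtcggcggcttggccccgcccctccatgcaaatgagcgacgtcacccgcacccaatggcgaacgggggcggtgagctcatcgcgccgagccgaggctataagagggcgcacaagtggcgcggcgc
ATF3, GRCh38.p14 chr1:212565157-212565406, plus strand: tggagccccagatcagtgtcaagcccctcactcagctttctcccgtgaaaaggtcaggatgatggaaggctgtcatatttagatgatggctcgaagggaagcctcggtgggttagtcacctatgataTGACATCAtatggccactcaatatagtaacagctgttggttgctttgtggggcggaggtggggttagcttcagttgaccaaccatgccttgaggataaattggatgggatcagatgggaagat
FOSL2, GRCh38.p14 chr2:28392608-28392857, plus strand: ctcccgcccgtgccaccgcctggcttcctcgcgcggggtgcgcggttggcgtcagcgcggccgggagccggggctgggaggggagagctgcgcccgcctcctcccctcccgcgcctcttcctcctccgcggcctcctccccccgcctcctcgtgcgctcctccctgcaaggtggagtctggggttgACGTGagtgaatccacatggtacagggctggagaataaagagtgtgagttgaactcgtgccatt

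The EGR1 promoter held 2 CArG boxes, at -105 to -96 and at -83 to -74, and 1 ACGTG on the minus strand at -137 to -133. JUN held TGACATCA at -67 to -60, JUND held TGACGTCA at -200 to -193, and the upstream ATF3 promoter held TGACATCA at -123 to -116. FOSL2 held ACGTG at -64 to -60. None of the 4 motifs was found in these windows of FOS, FOSB, JUNB or the second ATF3 promoter, TGACTCA was in none of the 9, and no match overlapped another. Of all 35116 RefSeq promoters of the same length, 1.16% held a CArG box, 6.87% TGACNTCA, 4.20% TGACTCA and 18.5% ACGTG. A match describes letters in a window and is not evidence of binding in these cells.

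Library totals lay between 45519306 counts (HCT8 under hypoxia) and 57374239 (DLD1 under hypoxia), and the floor of 3 counts stood at 0.0523 to 0.0659 CPM, the count per 1000000 counts of a library. Across genes, the library labelled NCM460 correlated with HCT116 at r = 0.994 (Pearson, log2(CPM + 1)) and with HIEC6, the other normal line, at 0.924, so results that rest on NCM460 are given with and without it. The library labelled HIEC6 had the keratins KRT8 (4290 CPM) and KRT18 (3725 CPM) but EPCAM at 0.18 CPM, CDX2 at 0.05 CPM and CLDN3 at 0 CPM, with 8 of 12 epithelial markers above 3 counts. Its 13 mesenchymal markers summed to 1491 CPM, mostly VIM (1223 CPM), against 110.2 CPM in NCM460 and 14.5 to 51.4 CPM in the untreated CRC lines. A list of 16 hypoxia response genes summed to 2944 to 4434 CPM in the untreated CRC lines and to 11064 to 20526 CPM in the same lines under hypoxia. All listed genes with enough counts were higher under hypoxia in each pair (15 of 15, 16 of 16 and 15 of 15). No run label was shared by an untreated and a hypoxia library of the CRC lines, so run and treatment cannot be told apart. NCM460 was the only untreated library with 2 run labels, and it shared a label with DLD1 and HCT116 under hypoxia. The part of this in the contrasts with NCM460 was not tested.

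The members differed widely in level, and the levels below are in CPM, with no replicate of any line and condition. FOS, the founding member of its family, had 14.3 CPM in NCM460 and 10.9 CPM in HIEC6. In HCT116 it went from 12.6 CPM untreated to 32.9 CPM under hypoxia, in HCT8 from 9.52 to 14.5 CPM and in DLD1 from 4.30 to 3.19 CPM. FOSB, its closest relative, ran lower, at 9.27 CPM in NCM460 and 1.90 CPM in HIEC6, and at 4.19 and 18.5 CPM in HCT116, 2.73 and 2.28 CPM in HCT8 and 1.11 and 1.50 CPM in DLD1 without and with hypoxia. Both were lowest in DLD1 and highest in HCT116 under hypoxia, and NCM460 held the highest untreated level.

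FOSL1 had the widest range of the 9 measurable members. The normal lines were at 91.0 CPM (NCM460) and 20.0 CPM (HIEC6). Without and with hypoxia, HCT116 was at 78.4 and 108 CPM, DLD1 at 21.6 and 13.6 CPM and HCT8 at 6.10 and 1.87 CPM. The 2 HCT116 libraries and NCM460 were high, the 2 HCT8 libraries low, and HIEC6 and both DLD1 libraries lay between them. FOSL2 (Fra-2) was at 141 CPM in NCM460 and 129 CPM in HIEC6, and went from 52.2 to 343 CPM in HCT116, from 172 to 210.1 CPM in DLD1 and from 132 to 184 CPM in HCT8. HCT116 held both the lowest and the highest FOSL2 level of the 8 libraries.

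JUN had the narrowest range, between 18.2 CPM (HIEC6) and 52.3 CPM (HCT116 under hypoxia, against 25.7 CPM untreated). NCM460 was at 35.0 CPM, DLD1 at 34.4 CPM untreated and 24.6 CPM under hypoxia, and HCT8 at 31.8 CPM in both. JUNB, which can restrain JUN at some promoters, was at 126 CPM in NCM460 and 52.6 CPM in HIEC6, and at 86.0 and 284 CPM in HCT116, 56.0 and 89.7 CPM in DLD1 and 31.1 and 44.1 CPM in HCT8 without and with hypoxia. JUND, often the subunit present in resting cells, was at 177 CPM in NCM460 and 89.3 CPM in HIEC6, and at 102 and 269 CPM in HCT116, 91.8 and 167 CPM in HCT8 and 54.0 and 83.3 CPM in DLD1. All 3 JUN genes were highest in HCT116 under hypoxia.

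EGR1 was at 220.1 CPM in NCM460 but at 8.09 CPM in HIEC6. Untreated and hypoxia levels were 171 and 285 CPM in HCT116, 112 and 47.5 CPM in DLD1 and 65.1 and 51.3 CPM in HCT8. HIEC6 thus stood below every other library. ATF3 was at 22.8 CPM in NCM460 and 11.6 CPM in HIEC6, and at 21.6 and 38.5 CPM in HCT116, 17.8 and 8.99 CPM in DLD1 and 7.44 and 6.37 CPM in HCT8. Both HCT8 libraries were the lowest for ATF3.

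**Figure D1:**
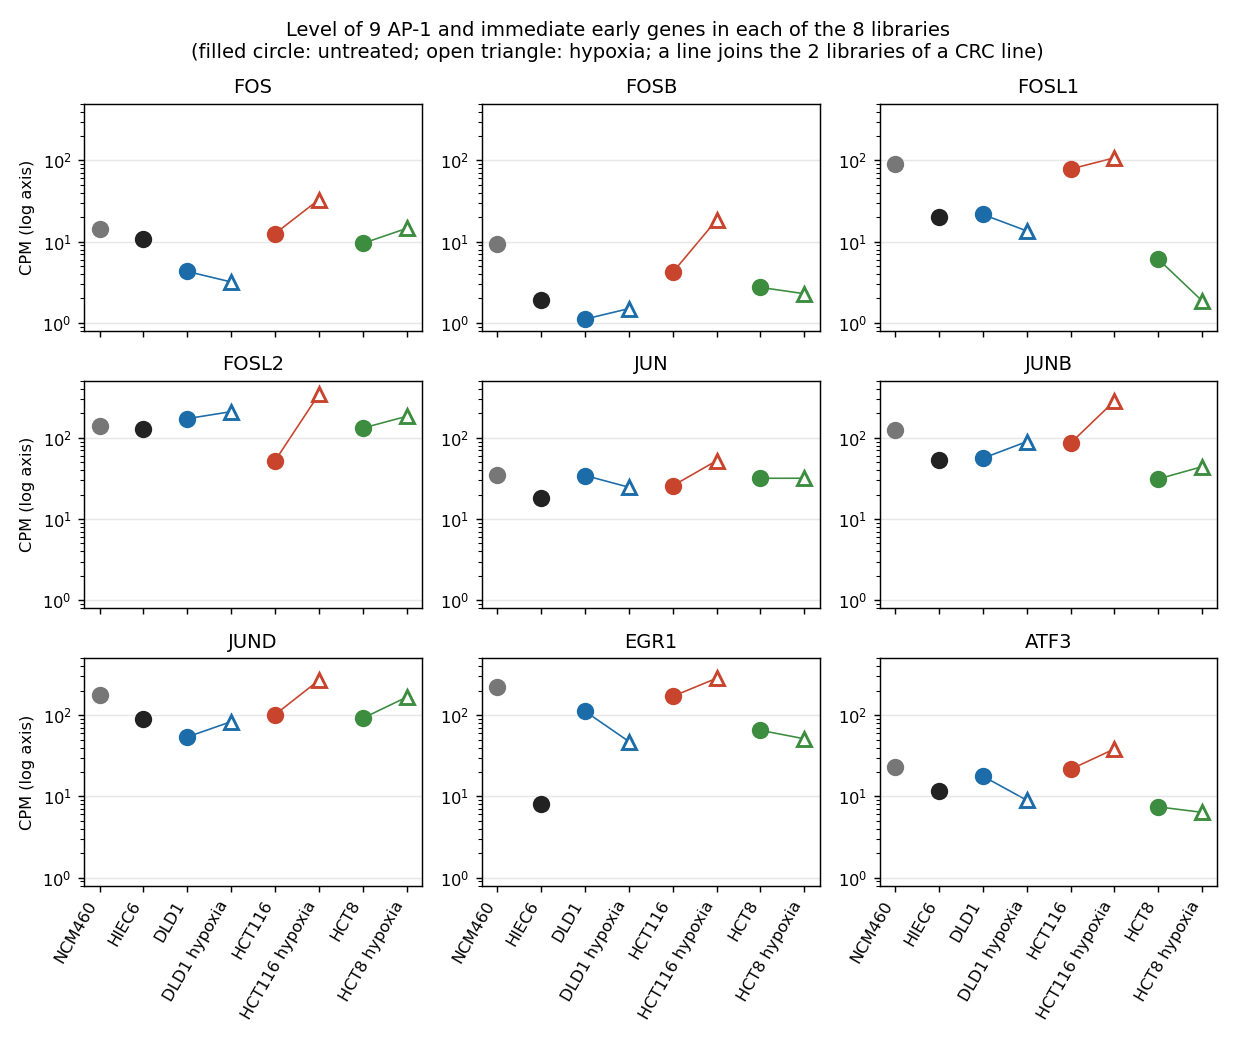
Level of 9 AP-1 and immediate early genes in each of the 8 libraries, in CPM on a log axis, with filled circles for untreated lines, open triangles for hypoxia and a line joining the 2 libraries of a CRC line. All 3 lines of a panel slope upward for FOSL2, JUNB and JUND, whereas FOSL1 goes from 6.10 to 1.87 CPM in HCT8 and EGR1 stands at 8.09 CPM in HIEC6.

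IER3 could not be read from this table. It had 15 counts in HCT116 under hypoxia, 1 count in NCM460 and 0 counts in the other 6 libraries, where a count of 0 allows up to 3 counts (0.0523 to 0.0659 CPM). Of the 32 protein-coding genes within 500000 bases of IER3 on chromosome 6 (GRCh37), 15 (46.9%) were listed at 0 in all 8 libraries, against 11.9% of 19187 protein-coding genes. TUBB, the main beta-tubulin, and FLOT1, DDR1, ABCF1 and MRPS18B, which are used in many cell types, were among those at 0. The values of IER3 are therefore given as listed and enter no comparison below, and the cause was not tested. IER3 had too few counts to be tested in any fit, which left 9 of the 10 members.

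The genes lie apart on the genome. In GRCh37, FOS is at chr14:75745529-75748933, FOSB at chr19:45971253-45978437, FOSL1 at chr11:65659520-65668044 (minus strand), FOSL2 at chr2:28615315-28640184 and JUN at chr1:59242517-59249720 (minus strand). JUNB is at chr19:12902300-12904129, JUND at chr19:18390504-18392432 (minus strand), EGR1 at chr5:137801168-137804992, ATF3 at chr1:212738676-212794119 and IER3 at chr6:30710976-30712325 (minus strand). JUN, JUNB and JUND consist of 1 exon in their canonical transcripts, so that spliced and unspliced RNA, or DNA carried over, cannot be told apart for them.

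To set the subunits against each other, levels were divided by the length of the canonical transcript (CPM per kb). JUND and JUNB were the 2 highest of the 7 AP-1 genes in 6 of 8 libraries, and in both HCT8 libraries FOSL2 came second to JUND. Together JUND and JUNB made up 53.3% of the summed level in untreated DLD1 and 59.2% to 70.7% in the other 7 libraries. In HCT116 under hypoxia JUNB had 34.8% and JUND 31.3%, whereas in HCT8 JUND had 46.3% untreated and 55.3% under hypoxia. FOSL1 supplied 27.3% of the sum in HCT116 and 21.0% in NCM460, but 11.6% in DLD1, 10.0% in HIEC6 and 3.48% in HCT8 untreated, and 0.70% in HCT8 under hypoxia. FOSL2 ran the other way, with 23.4% in DLD1 and 19.1% in HCT8 against 4.61% in HCT116. FOS and FOSB were minor, at no more than 4.43% and 1.10% of the sum in any library. The sum of all 7 was 255 CPM per kb in NCM460 and 117 CPM per kb in HIEC6. It went from 168 to 446 CPM per kb in HCT116, from 109.9 to 141 in DLD1 and from 103 to 156 in HCT8.

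**Figure D2:**
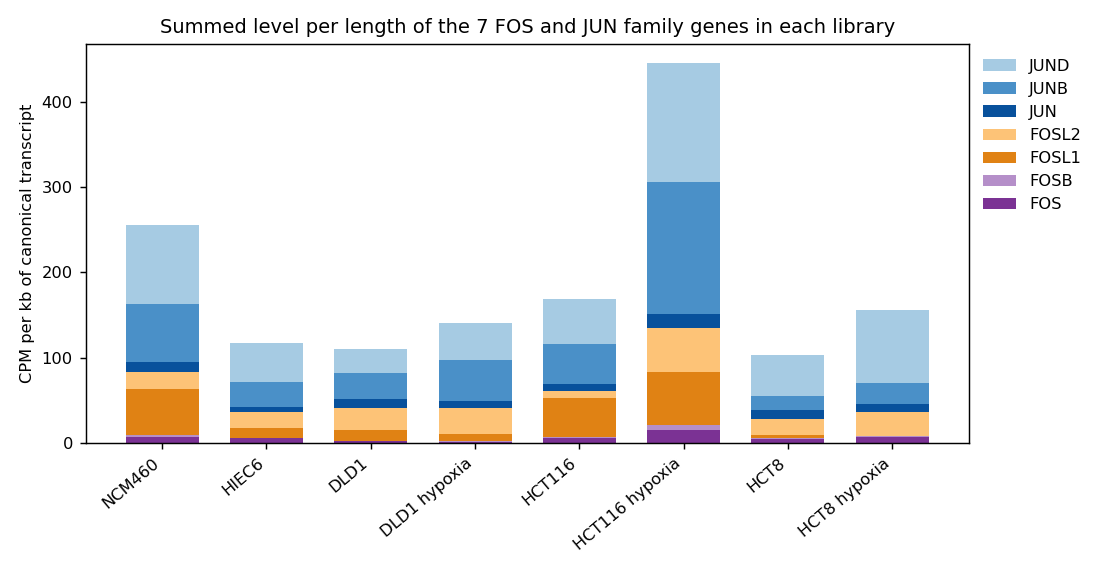
Summed level of the 7 FOS and JUN family genes in each library in CPM per kb of canonical transcript, stacked by gene, with 1 bar per library. The sum reached 446 CPM per kb in HCT116 under hypoxia against 168 in untreated HCT116, and the FOSL1 part is large in HCT116 and NCM460 and thin in HCT8.

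The first comparison asked what hypoxia changed within each CRC line, 1 library against 1, so that no test was possible and the intervals (95%, exact binomial, Clopper-Pearson) cover counting error only. In HCT116, all 9 members were higher under hypoxia, 6 of them at least 2-fold, where 12.4% of 19846 genes with enough counts were at least 2-fold higher and 25.7% at least 2-fold lower. FOSL2 was furthest up, with a log2 ratio of 2.72 (interval 2.66 to 2.78), followed by FOSB at 2.14, JUNB at 1.72, JUND at 1.41, FOS at 1.39 and JUN at 1.03. ATF3 (0.84), EGR1 (0.74) and FOSL1 (0.46, interval 0.40 to 0.51) were less than 2-fold higher. The median of all genes in this pair was -0.35 by library totals, and TMM scaling (a trimmed mean of gene ratios) moved each ratio of the pair up by 0.36. With TMM, 8 of 9 members were at least 2-fold higher, where 17.2% of genes were at least 2-fold higher and 16.9% at least 2-fold lower. HCT116 under hypoxia also had the largest share of counts in its 10 most abundant genes (13.1%, against 6.03% to 8.86% in the other 7 libraries), led by the small nuclear RNA RN7SK at 4.05%. The part of this in the members' ratios was not tested.

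DLD1 gave a mixed picture, with 4 of 9 members higher, 0 of them at least 2-fold (11.2% of 19642 genes were), and 1 at least 2-fold lower (5.9% of genes). EGR1 was lower by the most, with a log2 ratio of -1.24 (interval -1.30 to -1.17), and ATF3 (-0.98), FOSL1 (-0.67), JUN (-0.48) and FOS (-0.43) were lower too. JUNB (0.68), JUND (0.63) and FOSL2 (0.29) were higher, and the interval of FOSB (0.43) ran from -0.07 to 0.94. The upward members with intervals above 0 were thus JUNB, JUND and FOSL2, and the downward ones included EGR1 and FOS (183 counts under hypoxia against 220).

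HCT8 stood between the other two, with 5 of 9 members higher, 0 at least 2-fold higher (14.4% of 20091 genes were) and 1 at least 2-fold lower (9.81%). JUND (0.86), FOS (0.61), JUNB (0.50) and FOSL2 (0.48) were higher on the log2 scale, while FOSL1 was lower by the most, at -1.71 (interval -2.07 to -1.36, from 321 and 85 counts). EGR1 was at -0.35, ATF3 at -0.22 with an interval that ended at -0.002, FOSB at -0.26 (interval -0.64 to 0.11) and JUN at 0.00 (interval -0.10 to 0.10). Over the 9 members the median log2 ratio was 1.39 in HCT116 (all genes -0.35), -0.43 in DLD1 (all genes 0.00) and 0.00 in HCT8 (all genes 0.01).

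**Figure D3:**
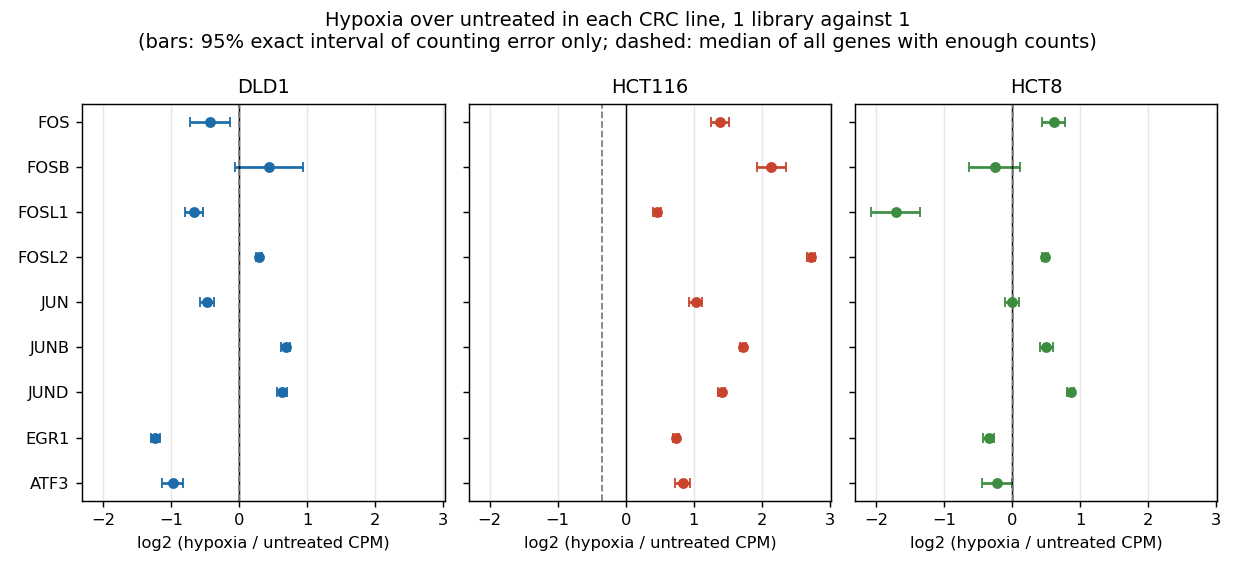
Log2 ratio of hypoxia over untreated CPM for 9 members in each CRC line, with 95% exact intervals of counting error only and the median of all genes as a dashed line. All 9 points lie right of 0 in HCT116, with FOSL2 at 2.72, whereas DLD1 and HCT8 have points on both sides and FOSL1 at -1.71 stands alone in HCT8.

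FOSL2, JUNB and JUND were higher under hypoxia in all 3 lines, by library totals and with TMM scaling alike. That is 3 of 9 members, where 16.2% of 21045 genes were higher in all 3 pairs by library totals and 22.3% with TMM. By library totals, FOSL2 was the only member whose groups did not overlap, with 52.2 to 172 CPM in the untreated CRC lines and 184 to 343 CPM under hypoxia, against 3.06% of genes with a higher hypoxia group of this kind. With TMM scaling the FOSL2 groups overlapped, at 164.3 CPM in untreated DLD1 and 159.9 CPM in HCT8 under hypoxia. Means were 119 ± 61.1 CPM untreated and 246 ± 85.4 CPM under hypoxia for FOSL2 (SD, n = 3 lines each), 57.7 ± 27.5 and 139 ± 127 CPM for JUNB and 82.4 ± 25.1 and 173 ± 93.2 CPM for JUND.

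Over the 6 CRC libraries, the quasi-likelihood test of edgeR (p-values adjusted by Benjamini-Hochberg) called 0 of 21045 genes (0.0%) between hypoxia and no treatment, and 607 genes had an unadjusted p under 0.05. None of the 9 members was called, with log2 fold changes from 0.45 (EGR1) to 1.83 (FOSB, standard error 1.21) and an adjusted p of 0.99986 for each. DESeq2 called 55 genes (0.349%) and 0 members. Leaving out the hypoxia library of HCT116 turned ATF3, EGR1, FOS, FOSB, FOSL1 and JUN negative, from -2.25 (FOSL1) to -0.08 (FOS), while FOSL2 (0.71), JUND (0.53) and JUNB (0.16) stayed positive.

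With the line as a block, which sets each hypoxia library against its own untreated library, the same test called 200 genes (0.95%, 0.741% higher and 0.209% lower) and again 0 of 9 members. JUND came nearest, with a log2 fold change of 1.10 (standard error 0.24, adjusted p = 0.0794), followed by JUNB at 1.10 (standard error 0.30, adjusted p = 0.125) and FOSL2 at 1.24 (standard error 0.50, adjusted p = 0.239). The blocked values were 0.91 for FOSB, 0.68 for FOS, 0.31 for JUN, 0.01 for ATF3, -0.15 for EGR1 and -0.46 for FOSL1. DESeq2 with the same block called 1666 genes (10.9%, 6.23% higher), JUND (adjusted p = 0.00357) and JUNB (adjusted p = 0.0231) among them, and gave FOSL2 an adjusted p of 0.0869. The call of JUND and JUNB thus depended on the tool. The call of JUND depended on the lines as well. Without the HCT116 pair, the blocked edgeR test had 4 libraries and called 738 of 19513 genes, 461 of them higher. JUND was called there, at 0.75 (adjusted p = 0.0388). JUNB at 0.60 (adjusted p = 0.0802) and FOSL2 at 0.39 (adjusted p = 0.229) were not. EGR1 and FOSL1 were at -0.79 (adjusted p = 0.0722) and -1.15 (adjusted p = 0.0607).

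The second comparison asked how the members differed between the CRC lines, with treatment as a covariate and 2 libraries per line. The F test for any difference among DLD1, HCT116 and HCT8 called 8208 of 21045 genes (39.0%) and 7 of 9 members. FOSL1 had the widest spread of line means, 5.13 on the log2 scale (adjusted p = 0.000525), followed by FOSB with 3.19 (adjusted p = 0.0118), FOS with 2.69 (adjusted p = 0.00918) and ATF3 with 2.55 (adjusted p = 0.00962). JUNB spread over 2.50 (adjusted p = 0.00336), EGR1 over 2.43 (adjusted p = 0.00858) and JUND over 1.54 (adjusted p = 0.0109). FOSL2 (0.47, adjusted p = 0.756) and JUN (0.67, adjusted p = 0.331) were not called. The FOSL2 result rested on HCT116, whose 2 libraries were its extremes: without HCT116 under hypoxia its spread was 1.61 (adjusted p = 0.000316), and without untreated HCT116 it was 1.52 (adjusted p = 0.00224). JUN was likewise called without untreated HCT116 (1.41, adjusted p = 0.00482). The call was lost for ATF3 without HCT8 under hypoxia (adjusted p = 0.0685), and for FOSB (adjusted p = 0.0525) and JUND (adjusted p = 0.0685) without DLD1 under hypoxia.

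HCT116 was the highest line for every called member. In contrasts of the same fit, chosen after seeing the data, HCT116 was above DLD1 for all 7 called members (32.0% of genes were called, 16.9% higher in HCT116), by 1.43 (JUNB) to 3.19 (FOSB) on the log2 scale with adjusted p-values from 0.00464 (FOS) to 0.0488 (ATF3). It was above HCT8 for 5 of them, FOSL1, ATF3, JUNB, EGR1 and FOSB (27.0% of genes were called, 13.9% higher in HCT116). FOS (1.26, standard error 0.46, adjusted p = 0.0778) and JUND (0.82, standard error 0.29, adjusted p = 0.0685) missed the threshold there. Between DLD1 and HCT8, 15.7% of genes were called (6.86% higher in DLD1) and FOSL1 was the only member called, 2.35 higher in DLD1 (standard error 0.51, adjusted p = 0.0184). FOSL1 was therefore ordered HCT116, DLD1, HCT8 with each step past the threshold, and no other member was. For 4 members, both HCT116 libraries exceeded all 4 libraries of DLD1 and HCT8, where 14.1% of genes did so.

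**Figure D4:**
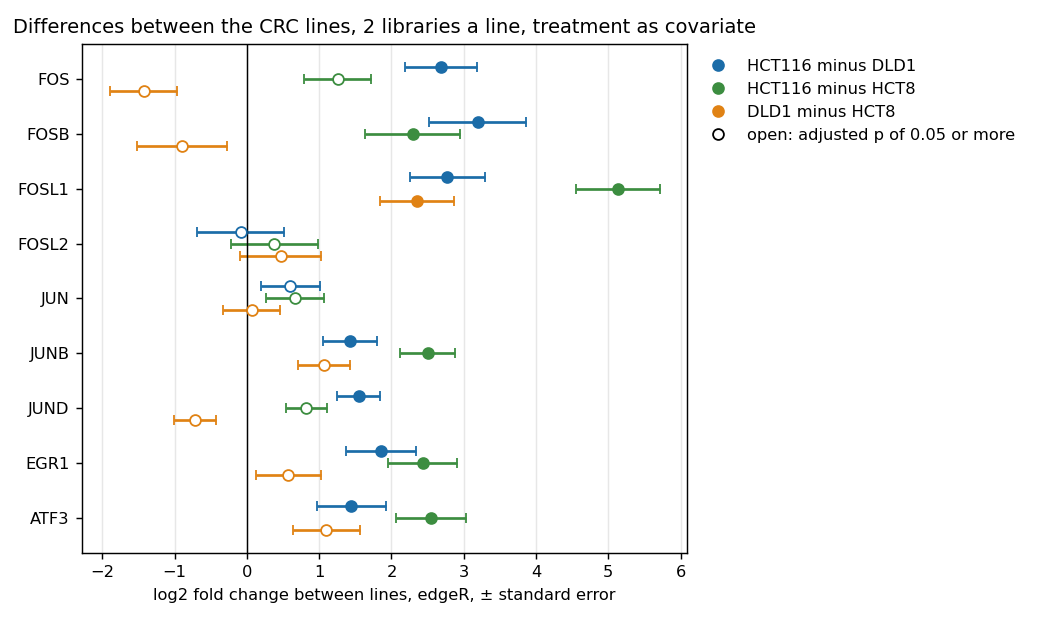
Log2 fold change between pairs of CRC lines for 9 members, from the edgeR fit with treatment as a covariate and 2 libraries per line, with standard errors and open circles where the adjusted p was 0.05 or more. FOSL1 has the farthest point, 5.13 for HCT116 over HCT8, and FOSL2 and JUN have open circles in all 3 contrasts.

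The third comparison set the 3 untreated CRC lines against the 2 normal lines, the first 2 of the 3 groups named in the title of the deposited series. Here edgeR called 0 of 19964 genes (0.0%, with 542 genes at an unadjusted p under 0.05) and 0 of 9 members, and DESeq2 called 143 genes (0.882%) and 0 members. Fold changes were below 0 for 8 of 9 members, from -0.06 (EGR1) to -1.18 (FOSB, standard error 0.94), with JUND at -0.85 (standard error 0.42) and JUN at 0.04, and an adjusted p of 0.999 for each. The groups overlapped for every member, where 13.2% of genes were higher and 4.99% lower in the CRC group without overlap. With HIEC6 as the only normal line, EGR1 and JUN were higher in all 3 CRC lines (2 of 9 members), where 43.1% of 18994 genes were higher and 22.7% lower in all 3.

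The normal lines themselves were far apart. EGR1 was 27.2-fold higher in NCM460 than in HIEC6, FOSB 4.87-fold, FOSL1 4.56-fold and JUNB 2.40-fold, while FOSL2 was 1.09-fold and FOS 1.31-fold higher. NCM460 lay within 2-fold of untreated HCT116 for 7 of 9 members, with ATF3 differing by a log2 ratio of 0.08 (interval -0.04 to 0.20) and FOSL1 by 0.22, and exceeded it at least 2-fold for FOSL2 (1.43) and FOSB (1.15), where 18.6% of 19580 genes differed at least 2-fold in either direction. Without NCM460, the fitted difference for EGR1 was 3.61 (standard error 0.86, adjusted p = 0.234) in place of -0.06, and ATF3 (0.19), FOSB (0.24) and FOSL1 (0.62) also changed sign. The difference without NCM460 was -0.38 for JUND, -0.10 for JUNB and 0.48 for JUN, while FOS (-0.57 against -0.69) and FOSL2 (-0.40 against -0.38) moved less, and 0 members were called. HIEC6 had both the highest mesenchymal marker sum (1491 CPM) and the lowest EGR1 level. Among the other libraries, the highest sum (184 CPM, HCT116 under hypoxia) stood with EGR1 at 285 CPM. The lowest sum (14.5 CPM, untreated DLD1) stood with EGR1 at 112 CPM. The part of the marker sum in the EGR1 level was not tested.

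Genes around the family were read from lists of pathway members. Of 26 other immediate early genes, 17 (65.4%) were called between the CRC lines, beside 39.0% of all genes, with a median spread of 1.98 against 1.22. Their median hypoxia ratio (log2) was 0.55 in HCT116, with 17 of 26 higher, -0.29 in DLD1, with 8 of 25 higher, and 0.05 in HCT8, with 13 of 24 higher, and 0 were called in either hypoxia fit with edgeR. NR4A2, an orphan nuclear receptor, went from 26.1 to 171 CPM in HCT116, from 4.24 to 6.54 CPM in DLD1 and from 2.03 to 4.11 CPM in HCT8. KLF4, an epithelial differentiation factor, went from 44.0 to 278 CPM, from 33.3 to 41.2 CPM and from 20.1 to 25.4 CPM in the same order. Both were higher in all 3 pairs and most so in HCT116. SGK1, a serum and glucocorticoid kinase, was lower in all 3 pairs, with log2 ratios of -1.13 (HCT116), -0.60 (DLD1) and -0.95 (HCT8), as was CTGF, a matrix protein and YAP target, with -0.31, -1.14 and -1.23 in the same order, although CTGF turned positive in HCT116 with TMM scaling (0.05).

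Partners and relatives of AP-1 were called between the lines for 9 of 14 genes (64.3%, beside 39.0% of all genes, and BATF, BATF2, BATF3, JDP2, MAF, MAFG, MAFK and CREB5 among them), with a median spread of 1.45 against 1.22. MAF was higher in all 3 pairs, although at 0.04 and 0.07 CPM it was near the floor in HCT116. In the blocked hypoxia fit, 2 of the 14 were called, both lower, where 0.209% of all genes were called lower. JDP2, a repressor that dimerises with JUN, fell by 1.50 (log2 scale, adjusted p = 0.0273), from 35.6 to 7.83 CPM in HCT116, from 62.1 to 19.0 CPM in DLD1 and from 102.5 to 50.6 CPM in HCT8. ATF4, the integrated stress response factor, fell by 0.99 (adjusted p = 0.042), from 734 to 290.4 CPM, from 951 to 476 CPM and from 743 to 364 CPM in the same order.

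The 9 genes of the ATF4 response list, to which ATF3 is functionally tied, were mostly lower, with 0 of 9 higher in DLD1, 2 of 8 in HCT116 and 3 of 9 in HCT8. The blocked fit called 5 of 9 lower, where 0.209% of all genes were called lower. These were the asparagine synthetase ASNS (-2.77, adjusted p = 0.0169) and the serine synthesis enzymes PSAT1 (-2.80, adjusted p = 0.0187) and PHGDH (-1.79, adjusted p = 0.0113). The others were CHAC1 (-2.44, adjusted p = 0.00613) and SESN2 (-1.36, adjusted p = 0.0359). The genes higher were DDIT4, an mTORC1 inhibitor that hypoxia is also known to induce, DDIT3 and VLDLR, named after their values were seen. DDIT4 went from 244 to 2510 CPM in HCT116 and from 182 to 752 CPM in HCT8 but from 384 to 339 CPM in DLD1, DDIT3 had log2 ratios of 0.43 in HCT116 and 0.59 in HCT8, and VLDLR had 2.11 in HCT8. The list median was -2.92 in HCT116, -1.79 in DLD1 and -1.19 in HCT8. The log2 ratio of ATF3 itself was 0.84, -0.98 and -0.22 in these pairs, so in HCT116 it was higher while ASNS went from 686 to 36.3 CPM. Between the lines, 6 of 9 genes of this list (66.7%, beside 39.0% of all genes) were called (CHAC1, TRIB3, PSAT1, PHGDH, SESN2 and VLDLR).

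Upstream of the family, few of the kinases, SRF and its cofactors differed between the lines. Only MAP2K7 (1.77, adjusted p = 0.000894), which activates JNK, and ELK3 (3.75, adjusted p = 0.000104), a TCF, were called between the lines out of 15 genes (13.3%, beside 39.0% of all genes), with a median spread of 0.44 against 1.22, and 0 of 15 were called under hypoxia with or without the block. With log2 ratios in the order HCT116, DLD1, HCT8, MAPK3 (ERK1) was higher in all 3 pairs (0.39, 0.50 and 0.73), MKL1, an SRF cofactor, by 0.03, 0.40 and 0.19, and MAPK14 (p38) was lower in all 3 (-0.86, -0.27 and -0.10). SRF was at -0.25, -0.29 and -1.01, but at 0.11 in HCT116 with TMM scaling.

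Genes that report ERK activity through feedback were called between the lines for 9 of 10, all but SPRED2, beside 39.0% of all genes, with a median spread of 2.07 against 1.22. DUSP4, an ERK phosphatase, was at 423 and 551 CPM in the HCT116 libraries and at 7.67 to 10.2 CPM in those of DLD1 and HCT8. PHLDA1 was at 911 and 1077 CPM in HCT116, 453 and 515 CPM in DLD1 and 61.8 and 78.0 CPM in HCT8, an order shared with FOSL1. SPRY2 ran the other way, at 12.9 and 10.9 CPM in HCT116, 21.6 and 14.6 CPM in DLD1 and 33.0 and 30.4 CPM in HCT8. None of the 10 was called under hypoxia. In the order HCT116, DLD1, HCT8, DUSP5 was higher in all 3 pairs (log2 ratios of 1.79, 0.38 and 1.58), as was PHLDA1 (0.24, 0.18 and 0.34), while ETV5 (-0.55, -1.17 and -0.56) and DUSP6 (-0.72, -0.56 and -0.15) were lower.

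Among genes listed as AP-1 targets, 18 of 24 had enough counts in the CRC libraries, and 10 of these 18 (55.6%, beside 39.0% of all genes) were called between the lines, with a median spread of 2.43 against 1.22. CD44, a hyaluronan receptor, was at 1199 and 1565 CPM in HCT116 against 29.8 to 53.6 CPM in DLD1 and HCT8 (spread 5.84, adjusted p = 7.91e-06). The urokinase gene PLAU (4.03) and its receptor PLAUR (4.09), the ligands AREG (4.46) and EREG (5.52), MMP7 (4.54), MMP14 (2.52), HBEGF (1.55) and TGFB1 (1.33) were among the others called. MMP14 was highest in HCT8, at 50.4 and 51.5 CPM against 26.3 and 36.7 CPM in HCT116. The MMP7 spread rested on few counts, 20 and 24 in HCT116 and 0 to 2 in the libraries of DLD1 and HCT8. None of the 18 was called under hypoxia with or without the block. VEGFA, an angiogenic growth factor that is also on the hypoxia response list, was higher in all 3 pairs, with log2 ratios of 1.50 in HCT116, 0.18 in DLD1 and 1.84 in HCT8. The list median was 0.43 in HCT116, with 16 of 18 genes higher, 0.18 in DLD1, with 10 of 17, and 0.03 in HCT8, with 8 of 15.

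**Figure D5:**
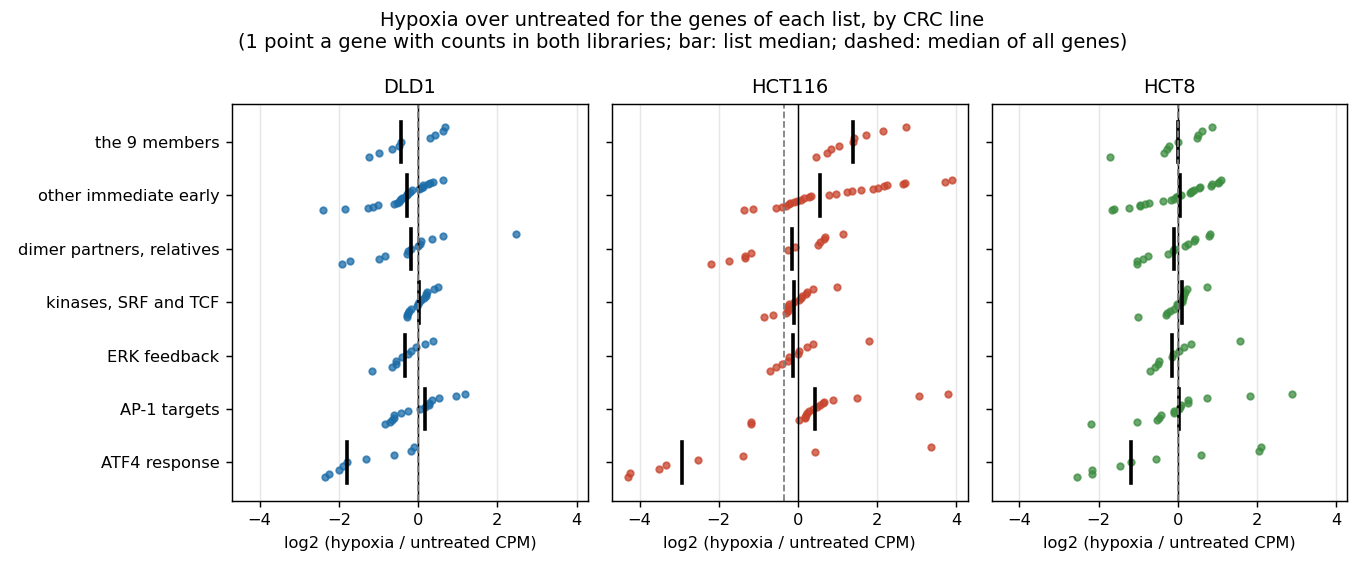
Log2 ratio of hypoxia over untreated CPM for the genes of 7 lists in each CRC line, 1 point per gene with counts in both libraries, with the list median as a bar and the median of all genes as a dashed line. In HCT116 the bars of the members (1.39) and of other immediate early genes (0.55) lie to the right and that of the ATF4 response (-2.92) far to the left, and in DLD1 those of the members (-0.43) and of other immediate early genes (-0.29) lie left of 0.

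In the markers, the blocked fit called KRT19 higher (1.56, adjusted p = 0.0115) among 12 epithelial genes. EPCAM was lower in all 3 pairs. Of epithelial genes with enough counts, 6 of 10 were higher in HCT116, 8 of 11 in DLD1 and 10 of 12 in HCT8. Among 13 mesenchymal genes FN1 was called higher (2.80, adjusted p = 0.0295), although it was at 0.27 and 0.46 CPM in HCT8. The mesenchymal sum went from 51.4 to 184 CPM in HCT116, from 14.5 to 101 CPM in DLD1 and from 17.5 to 26.5 CPM in HCT8. Of these genes, 11 of 12, 12 of 12 and 3 of 8 were higher in the same order, with a median log2 ratio of -0.14 in HCT8. Of the 16 hypoxia response genes, 12 were called higher in the blocked fit, where 0.741% of all genes were called higher. Their part in the members' levels was not tested.

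Across the 8 libraries, which share lines and runs, the members most alike were FOSL1 and ATF3 (Pearson r of log2(CPM + 1) = 0.940, n = 8 libraries), FOS and JUND (0.872) and FOSB and JUND (0.866), and the least alike were FOSL1 and FOSL2 (-0.11). Among all genes with enough counts and range, the nearest to FOS was the kinase CAMK1D (0.984), to FOSL1 the gene CACHD1 (0.987), to EGR1 the membrane protein CDCP1 (0.975), to JUNB the lens filament gene BFSP1 (0.980) and to FOSL2 the coat protein SEC24A (0.932). For JUND it was the antisense transcript JMJD1C-AS1 (0.997), also low at 0.45 to 3.14 CPM. For ATF3 it was DACT1 (0.964), at 0 CPM in both HCT8 libraries, and for FOSB and JUN the low-level genes STMN1P1 (0.984) and TDRD6 (0.945). These are descriptions over 8 points picked from 14697 candidates. The second nearest were RPL10AP8 (FOSB), SMNDC1 (FOSL1), RNF24 (FOSL2), DSCR3 (JUN), ZNF192P1 (JUNB), LOC105377872 (JUND), RPS2P46 (EGR1) and SNORA8 (ATF3).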

How the data were processed

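Total RNA of 8 libraries was depleted of ribosomal RNA and sequenced on an Illumina HiSeq instrument. The authors deposited 1 table of raw counts per gene for 54261 symbols, without normalization, and all 8 columns were used. The study's methods name GRCh37.p13 as the reference, whereas the submitters' processing notes name GRCh38 and HISAT2 2.0.4. The counter, annotation, strand setting and handling of reads with several matches are not given in the sources used here, so reads shared with antisense or similar genes cannot be separated. CPM was computed from column totals, which set the depth (45519306 to 57374239 counts) and the counting precision.

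Tests covered the genes that reached 10 counts in 2 or more of the fitted libraries and were run in R 4.3.3 with edgeR 4.0.16 (glmQLFit, glmQLFTest, TMM, Benjamini-Hochberg over all genes, threshold 0.05), and the standard error was the fold change over the root of F. The hypoxia fit had no block. The labels' replicate number is the cell line there, so it pairs the libraries (deviations from group means correlated at 0.836, 0.857 and 0.820 within lines, -0.611 to -0.0599 between lines), and the fit with this block is printed beside it. Within a line, genes with at least 10 counts in 1 library were compared by log2 ratio of CPM, and counts under 3 were set to 3 for shares and medians over genes. Intervals were computed with SciPy 1.17.1. Since replicates are different lines and nothing names separate cultures, p-values measure the spread between these libraries. Without the block this is the spread between lines of a group. In the hypoxia fit with the block and in the test between CRC lines, it is the line by treatment deviation. No p-value covers the spread between cultures of the same line and condition.

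The members and gene lists were chosen with earlier results of these data known. Named were all members, list genes past a threshold (or, in long lists, their counts), up to 2 list genes per direction with the largest mean ratio among those that moved alike in 3 pairs, and the 2 genes most correlated with each member. Positions and transcript lengths came from GENCODE 44 on GRCh37 (a lifted release, with 35342 symbols of the table found in it), and promoters from RefSeq on GRCh38.p14. Alternatives were DESeq2 1.42.0, limma-trend (limma 3.58.1), other scalings and filters, all libraries in 1 fit, and each library left out. The fitting code was tested on simulated data. Results for some genes that these rules name are not reported here.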

Additional observations from a re-analysis of the deposited data

Results flagged for a closer look

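For 5 members, hypoxia went in opposite directions in 2 CRC lines, beyond counting error in each. With 1 pair per line, the difference between lines was not tested. On the log2 scale, FOS was at 1.39 in HCT116 and -0.43 in DLD1, JUN at 1.03 and -0.48, EGR1 at 0.74 and -1.24, and ATF3 at 0.84 and -0.98 in the same lines. FOSL1 was at 0.46 in HCT116 and -1.71 in HCT8. HCT116 under hypoxia is the library with the largest share of counts in its 10 most abundant genes (13.1%), and TMM scaling moved its pair by 0.36 without turning any of these directions. No group had 4 samples, so single libraries were not screened within groups.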

How the results depend on the processing

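No alternative turned the direction of a member within a pair. For hypoxia, edgeR's count of 0 genes became 55 with DESeq2, 200 with the replicate block, 215 with the block and upper-quartile scaling and 1666 with the block in DESeq2, and with the block and a line left out it was 292 without DLD1, 738 without HCT116 and 6 without HCT8. For CRC against normal lines, 0 became 143 with DESeq2, and pairing by the labels' number, which joins different lines there, also called 0. Between the CRC lines, 8208 genes were called, 3295 in the added contrast of DLD1 with HCT8, and 4547 to 10147 with a library left out. Members that changed sign were never past the threshold in those fits. For hypoxia, JUND was past it with the block in DESeq2 and with the block without HCT116, and JUNB with the block in DESeq2. For hypoxia, EGR1 was at -0.15 with limma-trend, -0.15 with the replicate block, -0.13 with the block in DESeq2 and -0.11 with the block and upper-quartile scaling, and FOSL1 at -0.50, -0.46, -0.47 and -0.42. With a library left out, hypoxia values ran from -1.08 to 0.95 for ATF3, -1.31 to 0.91 for EGR1, -0.08 to 1.72 for FOS, -0.57 to 2.41 for FOSB, -2.25 to 1.98 for FOSL1 and -0.16 to 0.72 for JUN, each lowest without HCT116 under hypoxia. With the block and a line left out they were -0.60 (ATF3) and -0.23 (JUN) without HCT116, -0.79 and -0.05 (EGR1) without HCT116 or HCT8, and -0.35 and -1.15 (FOSL1) without DLD1 or HCT116. For CRC against normal lines, EGR1 was at 0.02 by column totals, 1.16 with limma-trend and 1.57 with the block, and ATF3 at 0.13 with the block. With a library left out they ran from -0.63 to 0.19 for ATF3, -1 to 3.61 for EGR1, -1.88 to 0.24 for FOSB and -2.15 to 0.62 for FOSL1, each highest without NCM460, and from -0.30 (without HIEC6) to 0.48 for JUN, with 0.09 (ATF3) and 0.27 (EGR1) without HCT8 and -0.07 (JUN) without DLD1. The causes were not tested. The limits are 1 library per line and condition and the coincidence of run and treatment.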

Other observations

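Several genes of the lists had levels in the library labelled HIEC6 that lay outside those of the other 7 libraries, as EGR1 did. They were chosen after their values were seen. Of 18994 genes, 43.1% were higher and 22.7% lower in all 3 untreated CRC lines than in HIEC6. The share of all genes outside the other 7 libraries was not counted. The ERK feedback genes DUSP6 (6.31 CPM) and SPRY4 (4.34 CPM) were at 66.1 to 375 CPM and 21.2 to 334 CPM elsewhere, and the immediate early genes ZFP36, an mRNA-decay factor (5.04 CPM), and KLF6 (10.2 CPM) at 18.0 to 229 CPM and 76.7 to 248 CPM. The EGF receptor ligand AREG was at 2.31 CPM in HIEC6 and 11.4 to 405 CPM elsewhere. In the opposite direction, SGK1 was at 196 CPM in HIEC6 against 2.85 to 21.4 CPM, and NR4A3, an orphan nuclear receptor, at 25.1 CPM against 0.51 to 8.09 CPM. DUSP1, a phosphatase of JNK and p38, was at 143 CPM in HIEC6 and 173 CPM in HCT116 under hypoxia, and at 9.12 to 14.3 CPM in the other 6 libraries.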
